A study of Torulaspora microellipsoides with 8 samples.

Results

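Tup1-Cyc8 and the histone deacetylase complexes Set3C, Rpd3-Sin3 and Hda1 were followed at the mRNA level in opaque and white cells of the budding yeast Torulaspora microellipsoides. Members were all transcribed regions that the annotation names for 1 of 10 S. cerevisiae genes, TUP1, CYC8, SIF2, SNT1, SET3, HOS2, HST1, RPD3, SIN3 and HDA1. Of these 10 names, 9 were found, on 13 of the 4464 regions in the table. HOS2, the class I deacetylase of Set3C, was the name with no region in the annotation used here, so nothing is given for it. TUP1, CYC8, SNT1 and SET3 each had 2 regions, called region 1 and region 2 in order of mean count, and the other names had 1.

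Opaque cells arise as heritable sectors in colonies of white cells, are larger, and carry more DNA than the haploid white cells of the same strain. RNA came from 3 opaque and 3 white cultures, all without any drug or introduced mutation, grown in YEG (yeast extract and glucose) at 23 °C and collected, per the labels, at an OD600 of 1.0. Nothing in the labels says that the 3 cultures of a cell type came from separate colonies, so p-values measure the spread between these cultures. Genomic DNA was also sequenced for both cell types and was not analysed here.

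The members act in chromatin-based repression, and their roles are known from S. cerevisiae. Tup1 and Cyc8 form a corepressor that binds no specific DNA itself and is brought to promoters by DNA-binding repressors, where it works in part through histone deacetylases. Rpd3 with its scaffold Sin3, the Hda1 complex and Set3C remove acetyl groups from histone tails at different genes. In Candida albicans, a distant relative, Tup1 and Set3C are known to take part in white-opaque switching.

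The libraries held 24948791 to 50126043 counts, with no consistent order between the cell types. As a check of the labels, GAP1, a general amino acid permease gene that the study itself picked on these samples, was higher in opaque cells (log2 fold change 4.18) and GLK1, a glucokinase gene, was lower (-5.21). In all, 74.2% of the 4404 regions tested differed between opaque and white cells by edgeR's quasi-likelihood test at a Benjamini-Hochberg adjusted p under 0.05, with 36.6% higher and 37.6% lower in opaque cells. A member that passes this test is therefore in the same position as most of the transcriptome. Levels are given as CPM per kb, the count scaled to the TMM-normalised library size and divided by region length. On this scale even 2 regions of 1 assembled transcript can differ. For CYC8, region 2 over region 1 was 1.77 in opaque and 2.15 in white cells. Levels of different genes are therefore compared only for the regions read. All levels are shares of a library, and fewer RNA molecules per cell cannot be told apart from more RNA of other genes. The errors of levels are SD over the 3 cultures, and the errors of log2 fold changes, always opaque over white, are SE.

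All 13 member regions had enough counts to be tested, with 360 to 11755 counts in any library. Of the 13, 2 were higher in opaque cells (SET3 region 1 and HDA1), 10 were lower, and 1 (SET3 region 2) did not pass the test, so 12 were called against the background of 74.2%. Counted by gene name with its most abundant region, 2 were higher and 7 lower. The median log2 fold change of the 13 regions was -0.47, against -0.02 over all tested regions. The log2 fold changes ran from -0.75 to 0.86, with a median size of 0.475 against 0.5525 over all tested regions. By edgeR or DESeq2, 0 of 13 reached 4-fold. Of all tested regions 11.2% passed at that size by edgeR, a share at which few of 13 regions would. At an unadjusted p under 0.05, 12 of 13 differed and 0 were 4-fold. In all 13 regions the opaque and white libraries did not overlap, SET3 region 2 included, as was the case for 77.8% of all tested regions.

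**Figure D1:**
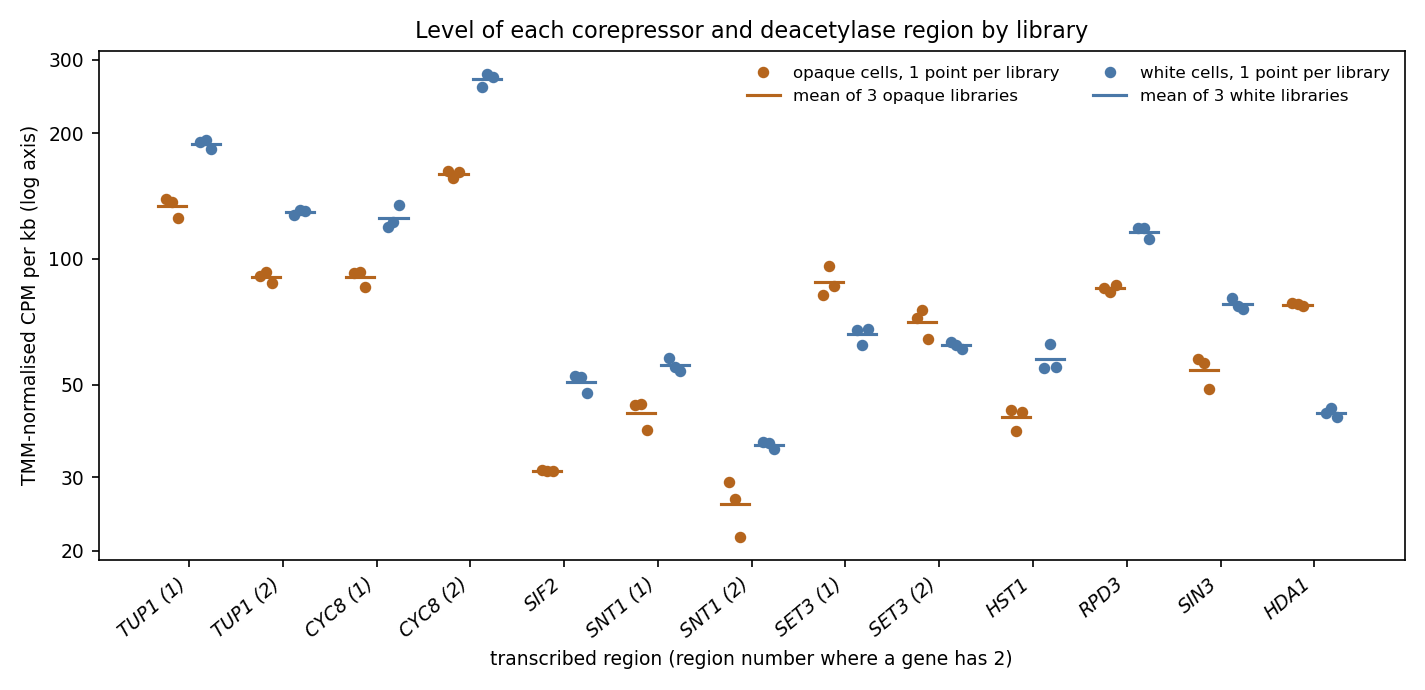
Level of each member region in CPM per kb on a log axis, with a point for each culture, opaque left of white, and a bar at the mean. Most members lie lower in opaque than in white cells, and HDA1 and SET3 region 1 lie higher, with 77.8 and 88.0 CPM per kb in opaque cells against 42.9 and 66.0 CPM per kb in white cells.

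**Figure D2:**
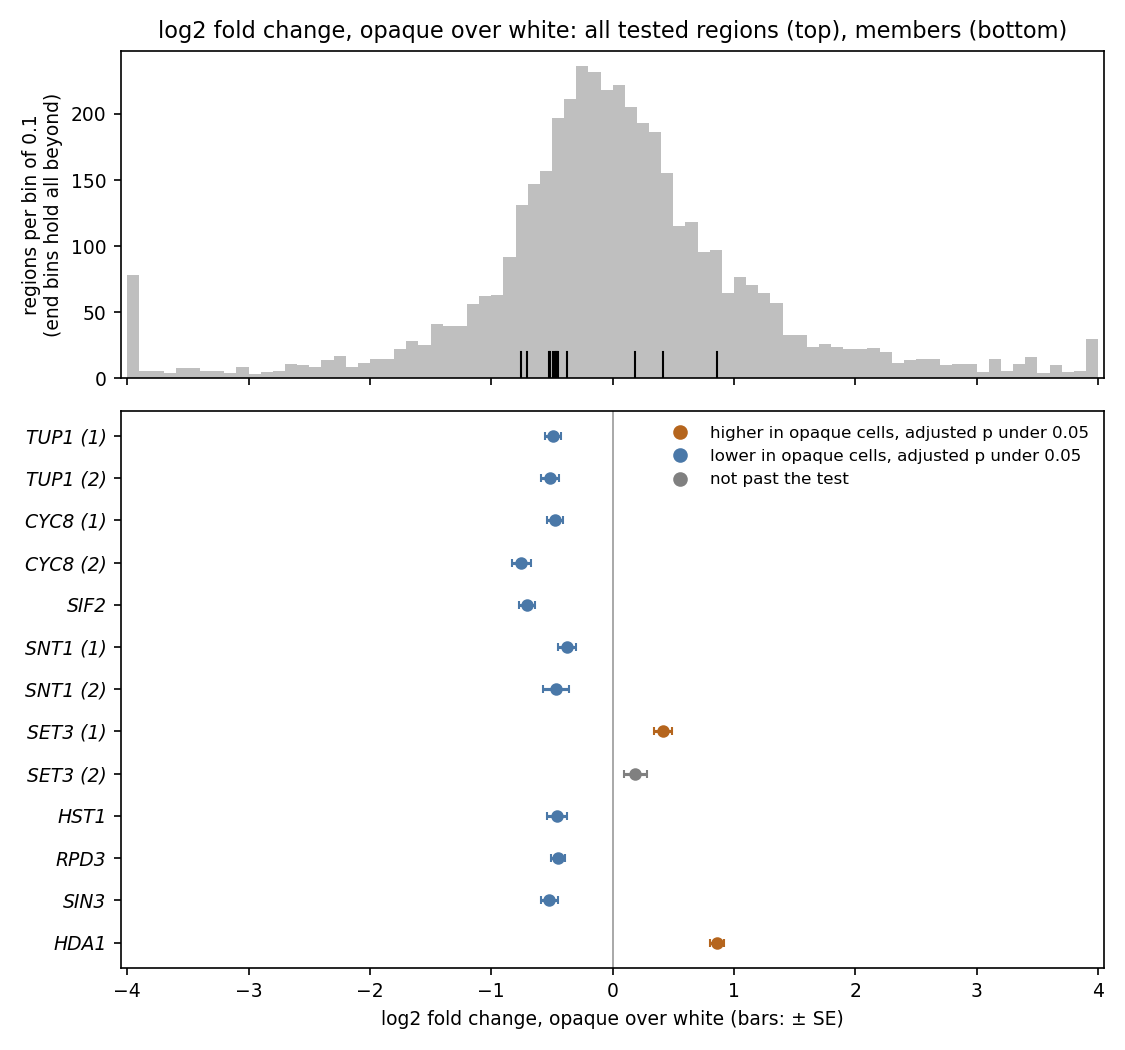
The upper panel is a histogram of the log2 fold change of opaque over white over the 4404 tested regions, in bins of 0.1, where the end bins also hold everything beyond 4 in either direction and ticks mark the members. The lower panel gives each member region with its SE, and all members lie between -0.75 and 0.86.

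Both parts of the Tup1-Cyc8 corepressor were lower in opaque cells. TUP1, the WD40-repeat subunit that contacts histone tails, lay on scaffold 2 at 78135 to 79715 (region 1, plus strand, 64.7% identical to its S. cerevisiae match) and 77616 to 77903 (region 2, 78.1% identical). TUP1 region 1 had 139, 137.1 and 125.6 CPM per kb in the opaque cultures, against 190.2, 192.1 and 182.8 CPM per kb in the white cultures. Every opaque culture was below every white culture by a wide margin. The log2 fold change was -0.49 ± 0.06 (edgeR adjusted p = 3.1e-05), a level 1.41-fold lower in opaque cells. The shorter TUP1 region 2 moved alike, with 90.6 ± 2.69 CPM per kb in opaque and 130 ± 2.07 CPM per kb in white cells (log2 fold change -0.52 ± 0.07, adjusted p = 5.8e-05).

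CYC8 encodes the tetratricopeptide-repeat subunit through which the complex meets its DNA-binding partners. It lay on the plus strand of scaffold 1, at 252929 to 254221 (region 1, 88.4% identical) and 254486 to 254590 (region 2, 54.3% identical). CYC8 region 1 had 92.4, 92.9 and 85.8 CPM per kb in the opaque cultures, against 119.4, 122.6 and 134.7 CPM per kb in the white cultures. Its log2 fold change was -0.48 ± 0.07 (edgeR adjusted p = 7.7e-05), close to that of TUP1. CYC8 region 2, of only 104 bp, had 162, 156.5 and 161.4 CPM per kb in opaque and 258.4, 277.3 and 272.7 CPM per kb in white cultures, and its log2 fold change of -0.75 ± 0.08 was the lowest among the member regions (adjusted p = 7.0e-06). The 2 named CYC8 regions cover 28.4% of the assembled transcript that holds them, so most of that transcript is not part of these values. The same holds for SET3 (40.2%) and HDA1 (43.1%), and the share was at least 55.3% for the other members.

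In Set3C the scaffold gene and its partners moved in opposite directions. SET3, which encodes the PHD-finger and SET-domain protein that holds the complex together and binds methylated histone H3, lay on the minus strand of scaffold 3 at 1111486 to 1112997 (region 1, 42.8% identical) and 1113289 to 1113528 (region 2, 73.8% identical). SET3 region 1 had 82.0, 95.9 and 86.1 CPM per kb in the opaque cultures, against 67.6, 62.3 and 68.1 CPM per kb in the white cultures. It was 1.33-fold higher in opaque cells (log2 fold change 0.41 ± 0.07, edgeR adjusted p = 3.6e-04). SET3 region 2, of 239 bp, had 72.2, 75.6 and 64.2 CPM per kb in opaque and 63.3, 62.1 and 60.9 CPM per kb in white cultures. These did not overlap either, but the change was small, at 0.19 ± 0.10 on the log2 scale, and the region did not pass (adjusted p = 0.10).

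SIF2 encodes the WD40-repeat subunit of Set3C and lay on scaffold 1 at 283709 to 285241 on the minus strand (59.3% identical). It had 31.3, 31.1 and 31.0 CPM per kb in the opaque cultures, against 52.5, 52.3 and 47.8 CPM per kb in the white cultures. The opaque cultures were nearly equal, and all were lower than any white culture, by 1.63-fold on average (log2 fold change -0.71 ± 0.06, edgeR adjusted p = 1.5e-06). SNT1, which encodes the SANT-domain subunit, lay on the plus strand of scaffold 4 at 797081 to 799390 (region 1, 44.8% identical) and 795677 to 796492 (region 2, 30.1% identical). SNT1 region 1 had 44.6, 45.0 and 38.9 CPM per kb in opaque and 57.8, 55.1 and 54.1 CPM per kb in white cultures (log2 fold change -0.38 ± 0.07, adjusted p = 5.9e-04). SNT1 region 2 had 29.3, 26.6 and 21.7 CPM per kb in opaque and 36.4, 36.2 and 35.1 CPM per kb in white cultures (-0.47 ± 0.11, adjusted p = 0.0022). Opaque replicate 3 was the lowest of the 3 opaque cultures in both SNT1 regions, and no white culture came as low as the highest opaque one.

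HST1 names the NAD-dependent deacetylase that is shared between Set3C and the Sum1-Rfm1 repressor of middle sporulation genes. The region that carries the name, on scaffold 4 at 482651 to 483634 (plus strand), is 23.6% identical to its match, and only 0.43% of regions have a lower identity, so that its name is the least certain among the members. It had 43.5, 38.8 and 43.1 CPM per kb in the opaque cultures, against 54.8, 62.6 and 55.0 CPM per kb in the white cultures (log2 fold change -0.46 ± 0.08, edgeR adjusted p = 3.2e-04). HOS4, the ankyrin-repeat subunit of Set3C and not among the members, was also lower in opaque cells, with 15.4 ± 2.21 CPM per kb against 23.1 ± 2.29 CPM per kb in white cells (-0.58 ± 0.12, adjusted p = 9.6e-04). A second HOS4 region gave -0.60 (adjusted p = 7.9e-04), and the third, of 50 bp, gave -0.49 and did not pass (adjusted p = 0.053).

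RPD3 and SIN3 were both lower in opaque cells, by similar amounts. RPD3, the class I deacetylase gene, lay on scaffold 9 at 40931 to 42229 on the minus strand and was the member most like its S. cerevisiae match, at 91.2% identity. RPD3 had 85.1, 83.3 and 86.8 CPM per kb in the opaque cultures, against 118.7, 118.4 and 111.5 CPM per kb in the white cultures. The cultures of each cell type lay close together, and RPD3 was 1.37-fold lower in opaque cells (log2 fold change -0.45 ± 0.06, edgeR adjusted p = 3.9e-05). SIN3, the scaffold of the Rpd3 complexes, lay on scaffold 8 at 604652 to 608485 on the plus strand, 61.6% identical. SIN3 had 57.7, 56.2 and 48.9 CPM per kb in the opaque cultures, against 80.4, 77.3 and 76.1 CPM per kb in the white cultures (-0.52 ± 0.07, adjusted p = 5.9e-05).

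HDA1 stood at the other end. It encodes the class II deacetylase that acts with Hda2 and Hda3 and has been linked to Tup1-dependent repression. It lay on the plus strand of scaffold 1 at 535034 to 537037, 81.5% identical to its match. HDA1 had 78.5, 77.8 and 77.0 CPM per kb in the opaque cultures, against 42.8, 43.9 and 41.8 CPM per kb in the white cultures. Replicates differed by little in both cell types, and HDA1 was 1.82-fold higher in opaque cells (log2 fold change 0.86 ± 0.06, edgeR adjusted p = 1.1e-07). The change lay at the percentile 82.1 of all tested regions, so it was the largest among the members without being large for this comparison. HDA3, its partner subunit, had 49.9, 51.3 and 48.2 CPM per kb in opaque and 42.3, 42.4 and 41.6 CPM per kb in white cultures. Its log2 fold change was 0.24 ± 0.06 (adjusted p = 0.0028), and it no longer passed with upper-quartile scaling (0.13, adjusted p = 0.058) or scaling to total counts (0.09, adjusted p = 0.20).

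The order of the levels, taken over the region of each name with the highest mean count, differed between the cell types. The short CYC8 region 2 was above TUP1 in both cell types, with 160 CPM per kb in opaque and 269.5 CPM per kb in white cells, so the order of TUP1 and CYC8 turns with the region read. In opaque cells TUP1 was highest over the regions taken. CYC8, SET3 and RPD3 came next, with means of 90.4, 88.0 and 85.1 CPM per kb and ranges over cultures that overlapped. HDA1 was the fifth, ahead of SIN3. SNT1 and HST1, with 42.8 and 41.8 CPM per kb, also overlapped, and SIF2 was lowest. In white cells TUP1, CYC8, RPD3 and SIN3 came first in that order without overlap between neighbours, SET3 overlapped with HST1 and HST1 with SNT1, SIF2 followed, and HDA1, with 42.9 CPM per kb, was the lowest of the 9.

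Ratios of 2 subunits within a library do not depend on how libraries are scaled. With 3 cultures against 3, an exact two-sided permutation test can give no p under 0.1, so for the 5 ratios computed none could pass. CYC8 relative to TUP1 had a log2 ratio of -0.59, -0.56 and -0.55 in the opaque cultures, against -0.67, -0.65 and -0.44 in the white cultures. The cell types overlapped, and the mean difference was 0.02 (exact permutation p = 0.90). SIN3 relative to RPD3 also overlapped, with -0.56, -0.57 and -0.83 in opaque and -0.56, -0.62 and -0.55 in white cultures (difference -0.08, exact permutation p = 0.50). In Set3C the cell types were apart. SIF2 relative to SET3 was -1.39, -1.63 and -1.47 in the opaque cultures, against -0.37, -0.25 and -0.51 in the white cultures (difference -1.12, exact permutation p = 0.1). SNT1 relative to SET3 had a mean log2 ratio of -1.04 in opaque and -0.24 in white cultures, and HST1 relative to SET3 one of -1.07 in opaque and -0.20 in white cultures, both without overlap and both with the smallest p possible, 0.1. On the linear scale the ratio of SIF2 to SET3 in counts per kb of the regions read was 0.355 in opaque cells and 0.771 in white cells. The 3 ratios to SET3 all used its region 1 as denominator, so they are not separate observations. SET3 region 2 did not pass by itself, and the name HST1 is uncertain, at 23.6% identity. How often ratios of other pairs of regions do not overlap was not computed, and 77.8% of single regions did not overlap.

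**Figure D3:**
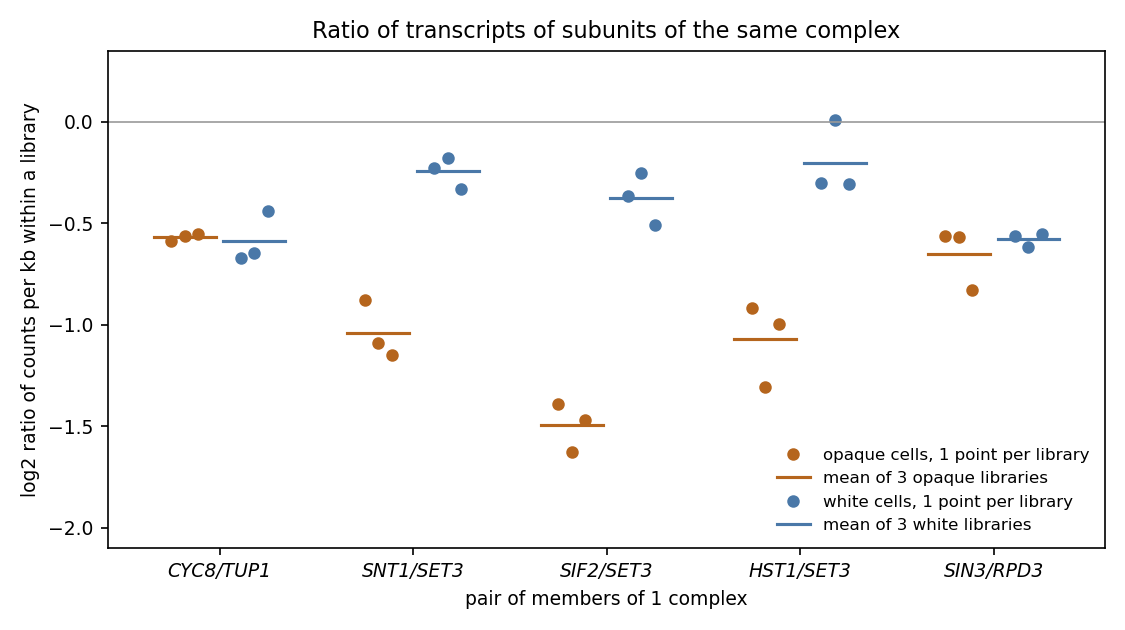
Log2 ratio of 2 subunits of a complex within each library, with a point for each culture, opaque left of white. CYC8 to TUP1 and SIN3 to RPD3 overlap between the cell types, and the 3 ratios to SET3 lie lower in opaque cells, by 0.79 to 1.12. SET3 stands for its region 1 in all 3, and the name HST1 is uncertain, at 23.6% identity.

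The 2 regions of a name gave similar changes for TUP1 and SNT1 and less so for CYC8 and SET3. Region 2 over region 1 of TUP1 differed between opaque and white cells by -0.02 (exact permutation p = 0.60), and that of SNT1 by -0.10 (exact permutation p = 0.30). For CYC8 the difference was -0.28 and for SET3 -0.23, without overlap and each at the smallest exact permutation p of 0.1. The estimated CYC8 and SET3 changes thus differed in size between the 2 regions and had the same sign, but a test with this smallest p could not pass. SET3 region 2 did not pass by itself, and with total-count scaling it was at 0.03 (edgeR adjusted p = 0.78), so its sign is not settled.

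None of the members shared an assembled transcript or bases with a region of another name, while the 2 regions of TUP1, CYC8, SNT1 and SET3 each lay in 1 assembled transcript. The nearest named regions on either side changed in various ways. HDA1 lay between RCM1, an rRNA methyltransferase gene 446 bp away on the other strand (log2 fold change 2.16, edgeR adjusted p = 2.2e-10), and GAA1, a gene for GPI anchor attachment 2807 bp away (1.06, adjusted p = 0.0016), so that both neighbours of the member with the largest rise were higher in opaque cells as well. The lower RPD3 lay 818 bp from NOP8, a ribosome biogenesis gene that was higher (1.82, adjusted p = 2.4e-09), and on its other side had PEX6, a peroxisome biogenesis gene on the same strand that was lower (-0.44, adjusted p = 5.5e-05). Both neighbours were lower, as the member was, for SNT1 (HAL5 -1.40, NNF2 -0.54) and HST1 (ADE13 -0.78, MUP1 -0.51). SIN3 had CDC5, which was lower (-0.39), and IZH2, which did not pass (-0.16). Beside TUP1, MVD1 was higher (0.26) and CSM1 did not pass (0.09), and beside CYC8, LYS2 was higher (0.73) and MED1 did not pass (0.05). Neither neighbour of SET3, PAM16 (0.14) or IME2 (-0.34), passed. SIF2 had TFB4 at 178 bp (-0.02, adjusted p = 0.77) and EXO84, an exocyst gene, at 245 bp (-0.75, adjusted p = 9.3e-07). The counting is not stated to use strand, and the part that reads of neighbours may have in these values was not tested.

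Other subunits of the Rpd3 complexes were found for 4 of 12 names, of which 3 were lower and 1 higher in opaque cells. ASH1, a repressor of HO that belongs to the large Rpd3 complex in S. cerevisiae and acts in daughter cells, had 50.5, 55.6 and 42.6 CPM per kb in the opaque cultures, against 200.5, 192.6 and 184.1 CPM per kb in the white cultures. With a log2 fold change of -1.96 ± 0.09 (edgeR adjusted p = 6.8e-09), it fell further than any member. PHO23, the PHD-finger subunit, had 34.0 ± 2.62 CPM per kb in opaque and 65.5 ± 0.757 CPM per kb in white cells (-0.94 ± 0.07, adjusted p = 4.1e-07). DEP1 was lower by less, at -0.29 in region 1 (adjusted p = 0.014) and -0.39 in region 2 (adjusted p = 0.0045). EAF3, a chromodomain subunit also found in the NuA4 acetyltransferase, was the higher one, at 0.23 (adjusted p = 0.035), but failed with upper-quartile (0.11) and total-count scaling (0.07) and in 6 other of its 13 alternatives. SUM1, the DNA-binding partner of Hst1, did not pass in any of its 3 regions (-0.13, -0.13 and -0.23), but all 3 passed as lower under total-count scaling (-0.29, -0.29 and -0.39) and upper-quartile scaling.

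Of the deacetylases outside these complexes, 3 of 6 names were found, with HST4 higher and HOS3 lower in opaque cells and HOS1 too low in opaque cells for a fold to be given. HOS3 encodes a deacetylase that in S. cerevisiae works without partner subunits. It had 21.3, 20.5 and 23.3 CPM per kb in the opaque cultures, against 71.2, 68.5 and 63.8 CPM per kb in the white cultures, a 3.13-fold lower level (log2 fold change -1.65 ± 0.07, edgeR adjusted p = 3.5e-09). HST4, a sirtuin that removes acetyl from lysine in the core of histone H3, had 22.0, 26.2 and 23.4 CPM per kb in opaque and 12.1, 13.0 and 13.3 CPM per kb in white cultures (0.90 ± 0.10, adjusted p = 7.3e-06). The region named HOS1 is 182 bp long and 27.9% identical to its match. It had 9, 4 and 1 counts in the opaque and 46, 85 and 62 counts in the white libraries. It passed the filter on low counts only through the white libraries, and a minimum of 10 counts in every library removed it. HOS3 fell and HDA1 rose by amounts beyond the spread of the cultures, so the deacetylase genes did not move as a group.

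**Figure D4:**
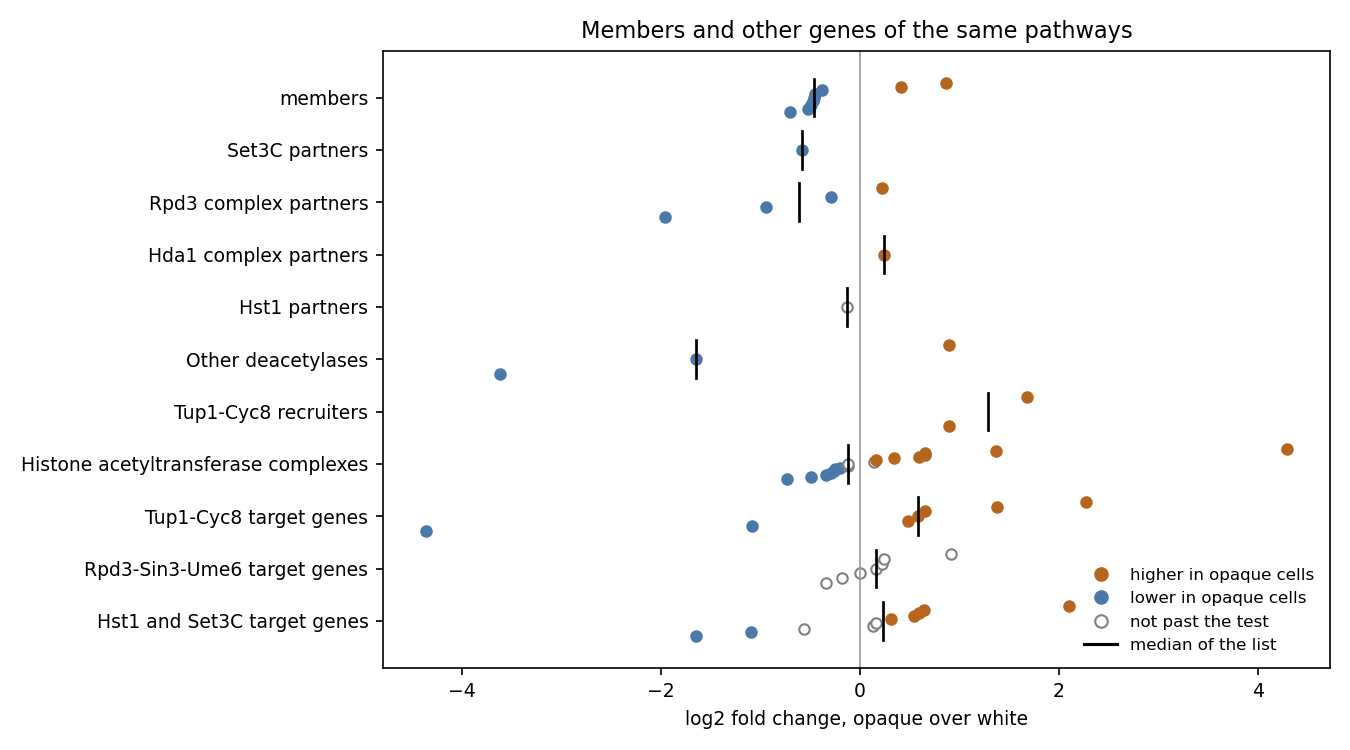
Log2 fold change of opaque over white for each gene of the 10 pathway lists, read from its most abundant region, with a bar at the list's median. Histone acetyltransferase genes spread to both sides of 0 with a median of -0.12. The 7 genes named for S. cerevisiae targets of Rpd3-Sin3-Ume6 run from -0.34 to 0.92 with a median of 0.17, none past the test.

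Genes listed under histone acetyltransferase complexes were found for 17 of 21 names. In opaque cells 7 were higher, 7 were lower and 3 were not called. Their median log2 fold change was -0.12. The list includes ELP3 and NAT4, and whether its products act against the deacetylases among the members was not tested. ELP3, the catalytic subunit of Elongator, was 74.1 ± 3.36 CPM per kb in opaque and 28.7 ± 1.60 CPM per kb in white cells (1.37 ± 0.07, edgeR adjusted p = 8.7e-09), although a 107 bp region of the same name went the other way (-0.86, adjusted p = 0.025). NAT4, an acetyltransferase of histone N-termini, had 107, 115.1 and 97.6 CPM per kb in opaque and 4.59, 7.39 and 4.30 CPM per kb in white cultures (4.29 ± 0.18, adjusted p = 1.8e-08), in a region 32.4% identical to its match. HAT2, of the Hat1 complex, was also higher (0.66, adjusted p = 1.8e-06). SPT20 and SPT7 of SAGA and EAF1 of NuA4 were lower in their most abundant regions, at -0.73 (adjusted p = 5.7e-06), -0.29 (adjusted p = 0.0011) and -0.34 (adjusted p = 0.0011). SPT7 regions 2 and 3 did not pass (-0.17 and 0.07), and region 4, of 68 bp, was lower (-2.13, adjusted p = 2.1e-04). EAF1 regions 2 and 3 did not pass either (-0.29 and -0.32).

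The DNA-binding proteins that recruit Tup1-Cyc8 in S. cerevisiae were found for 2 of 9 names, and both were higher in opaque cells while TUP1 and CYC8 were lower. NRG1, a zinc-finger repressor of glucose-repressed genes, had 411.3, 444.4 and 377.1 CPM per kb in the opaque cultures, against 133.6, 119.9 and 132 CPM per kb in the white cultures (log2 fold change 1.68 ± 0.08, edgeR adjusted p = 5.5e-09). ROX1, the repressor of hypoxic genes, had 187.9, 200.2 and 148.2 CPM per kb in opaque and 102.9, 92.5 and 93.0 CPM per kb in white cultures (0.90 ± 0.11, adjusted p = 2.0e-05). The region named NRG1 is 37.7% identical to its match, and such a name may stand for another zinc-finger gene.

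Genes under Tup1-Cyc8 in S. cerevisiae were found for 7 of 12 names, of which 5 were higher and 2 lower in opaque cells. GRE2, an oxidoreductase of the osmotic stress response, had 3417 ± 304 CPM per kb in opaque and 706 ± 103 CPM per kb in white cells in its most abundant region (log2 fold change 2.28 ± 0.11, edgeR adjusted p = 1.7e-08), while a second region of that name did not pass (-0.07, adjusted p = 0.36). HEM13, an enzyme of haem synthesis and a target of Rox1 in S. cerevisiae, was higher by 1.37 ± 0.11 (adjusted p = 1.9e-06), and ANB1, an eIF5A gene, by 0.66 (adjusted p = 2.4e-06). The region named ANB1 had 3191 ± 120 CPM per kb in opaque and 2025 ± 51.5 CPM per kb in white cells, so it was silent in neither. Whether it stands for ANB1 or for another eIF5A gene was not tested. SUC2, invertase, went the other way, with 51.8, 64.7 and 56.0 CPM per kb in the opaque cultures, against 1126, 1350 and 1067 CPM per kb in the white cultures (-4.36 ± 0.12, adjusted p = 2.4e-10), and a second SUC2 region was lower too (-2.33). FLO11, a flocculin, was split, with one region lower (-1.09) and the other higher (2.05), and summed over both regions it did not pass (-0.21, adjusted p = 0.11). The 7 genes named for S. cerevisiae targets thus had no common direction. Whether Tup1-Cyc8 acts on them in T. microellipsoides was not tested.

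Meiotic and arginine catabolic genes that Ume6 keeps silent through Rpd3 and Sin3 in S. cerevisiae were found for 7 of 8 names. By edgeR 0 of the 7 passed in either direction and 0 had an unadjusted p under 0.05, whereas DESeq2 called 1 of them higher. With edgeR, 1 was called lower with upper-quartile scaling, with total-count scaling, without opaque replicate 1, without white replicate 1 and when counts were summed per name, and 1 was called higher without white replicate 3. REC8, a meiotic cohesin gene, had the largest log2 fold change of the 7, 0.92 (adjusted p = 0.11), on 26, 13 and 7 counts in the opaque and 10, 11 and 5 counts in the white libraries. Mean levels of HOP1, IME2, SPO11, SPO13 and REC8 were only 5.17 to 9.22 CPM per kb in either cell type. A missing call says little for REC8 and IME2, whose SE were 0.49 and 0.33. The SE were smaller for HOP1 (0.0015 ± 0.14), SPO11 (0.22 ± 0.17) and SPO13 (0.24 ± 0.22). CAR1 and CAR2 had 483.4 and 1116 CPM per kb in opaque and 546.5 and 995.4 CPM per kb in white cells, so neither was silent. A second region named CAR1, 27.7% identical to its match, was lower (-1.47, edgeR adjusted p = 1.9e-06), while the most abundant CAR1 region gave -0.18 (adjusted p = 0.096). Genes under Hst1 or Set3C in S. cerevisiae were found for 10 of 12 names, 5 higher, 2 lower and 3 not past the test. Among the genes of NAD synthesis from tryptophan, BNA5 was higher by 0.64 (adjusted p = 2.1e-06) and BNA2 by 0.59 (adjusted p = 6.7e-06), and BNA6 was lower, with 78.5, 77.3 and 86.6 CPM per kb in opaque and 256.6, 267.5 and 234.9 CPM per kb in white cultures (-1.65 ± 0.07, adjusted p = 4.6e-09). Of the middle sporulation genes, SPS4 was higher by 2.10 ± 0.21 (adjusted p = 2.9e-06), from a level of only 5.03 ± 1.44 CPM per kb in white cells to 21.9 ± 1.59 CPM per kb in opaque cells. NDT80, which encodes the transcription factor of middle sporulation, was lower (-1.10 ± 0.17, adjusted p = 1.5e-04). Its levels were only 5.77 ± 1.54 CPM per kb in opaque and 12.4 ± 1.11 CPM per kb in white cells. This region is 33.9% identical to its match. A second NDT80 region, of 146 bp and 77.6% identical, did not pass (-0.48, adjusted p = 0.27). A second BNA2 region, 27.5% identical to its match, did not pass either (0.52, adjusted p = 0.056). Over all 10 lists, 53 of 86 names were found, with 22 higher, 17 lower (HOS1 among them) and 14 not past the test. The 39 called are 73.6% of the 53, close to the 74.2% of all tested regions.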

How the data were processed

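Cells of both types were grown in YEG. The study isolated RNA by a hot phenol method, removed DNA and prepared strand-specific mRNA libraries. The authors aligned reads with STAR to the genome of CLIB830T, assembled and merged transcripts with cufflinks and named them by BLAST against S. cerevisiae proteins. The deposited counts are whole numbers per region and library, without normalization or pooling. Whether strand and both reads of a pair were used is not stated. The deposited fraction of each region covered by reads, computed by the authors, served only as a check, and all 13 member regions were fully covered in every library. The percent identity is as deposited in the annotation.

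Of 4482 annotation rows, 18 repeated the coordinates of another and were dropped. Counts were fitted with edgeR 4.0.16 in R 4.3.3 (TMM, filterByExpr, robust quasi-likelihood, cell type as factor). Of 4464 regions 4404 were tested, and p-values were Benjamini-Hochberg adjusted over all of them. The SE is the log2 fold change divided by the square root of F. Library totals were 50126043, 25396327 and 24948791 in opaque and 27057131, 35795254 and 36957019 in white cultures. No pair of libraries was a duplicate. Alternatives were upper-quartile, total-count and DESeq2 scaling, DESeq2 1.42.0, other filters on low counts, a replicate block, counts summed per name and leaving out each library. The members and lists were chosen with earlier results of these data known. Genes named beside the members are all found subunits of their complexes, other deacetylases and recruiters, and, for the acetyltransferase and target lists, up to 3 per direction with the smallest adjusted p and any called with at least 4-fold change. A second CAR1 region, ELP3 region 2 and the other regions of BNA2, EAF1, FLO11, GRE2, NDT80, SPT7 and SUC2 were added after their values were seen. The levels and errors of the genes listed under Ume6 and the level of ANB1 were also added then. Neighbours are the nearest differently named regions.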

Additional observations from a re-analysis of the deposited data

How the results depend on the processing

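Over 173 values of the 13 member regions under the alternatives, 172 kept their direction and side of the threshold, and none changed sign. The exception was SET3 region 2, which passed without opaque replicate 3 (0.23, edgeR adjusted p = 0.047), so that 3 rather than 2 member regions were then higher. The 12 called regions kept their calls in all 160 of their alternative values, with a highest adjusted p of 0.017, for SET3 region 1 with total-count scaling (0.26 in place of 0.41). Of 441 values of other named regions, 12 fell short of the threshold, 12 came to pass it and 0 changed sign. Those that fell short were EAF3 in 8 alternatives, HDA3 in 2, FLO11 summed per name and DEP1 region 1 without white replicate 1 (-0.24, adjusted p = 0.054). Those that came to pass were the 3 regions of SUM1, in 4, 2 and 2 alternatives, and HOS4 region 3 in 4, all lower. Upper-quartile and total-count scaling moved the median of all regions by -0.12 and -0.16, and the pathway genes called were then 18 higher and 21 lower. Leaving out 1 library gave 1499 to 1587 regions higher and 1615 to 1653 lower, against 1611 and 1656 with all.

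No pairing of cultures by replicate number was seen. Deviations of same-numbered libraries had correlations of -0.02, -0.06 and 0.23, against -0.32 to 0.28 for differently numbered ones. So few cultures cannot exclude a pairing. A fit with the replicate block gave 2 member regions higher and 10 lower, and 1599 and 1660 over all regions. The log2 ratio of CYC8 to TUP1 differed by -0.02 to 0.09 and that of SIN3 to RPD3 by -0.12 to 0.01 when 1 library was left out, so neither has a stable sign, while SIF2 to SET3 stayed between -1.19 and -1.05. The cause of these changes was not tested. Depth limits HOS1, with 1 to 9 counts in opaque libraries, and REC8, and short regions such as SET3 region 2 and CYC8 region 2 rest on fewer counts than the others.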
